A study of Mus musculus with 8 samples.

Results

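The 10 genes of mouse chromosome 4 described here differed between oocytes lacking BAF250a and control oocytes at both stages of maturation: Extl1, Slc30a2, Dhrs3, Cachd1, Cap1, Khdrbs1, Trnp1, Aunip, Glis1 and Dennd4c. They were taken as single-copy genes whose levels differed in the same direction at both stages, and are 10 of 956 chromosome 4 genes tested, Arid1a itself left out, and of 15572 genes tested in all. All 10 have an entry in the deposited table and all 10 passed the filter on low counts. Because the knockout comparison chose them, their knockout differences are given as a description, and nothing is supported by them. Fitted values are given, with adjusted p-values only to show nearness to the threshold, not as a test of the genes.

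The series compared BAF250aGKO oocytes at the germinal vesicle (GV) stage, BAF250aGKO oocytes arrested in the second meiotic metaphase (MII), control GV oocytes and control MII oocytes. Each of these 4 groups had 2 libraries, and each library was made from total RNA of 5 to 10 pooled oocytes. All groups were of the strain C57BL/6, the controls are given as wildtype, and the knockout was made with Gdf9-cre, a recombinase driven by an oocyte promoter that is active from the early growth of the follicle. Ages, the deleted exons, and whether controls carried the recombinase or the unrecombined allele are not stated in the sources at hand. Nothing in the labels ties replicates to different animals, so errors and p-values cover no more than the spread between libraries.

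BAF250a, the product of Arid1a, belongs to the SWI/SNF family of chromatin remodelling complexes as the large subunit of BAF, which moves and evicts nucleosomes at promoters and enhancers. A growing oocyte transcribes and stores RNA, falls nearly silent by the end of growth at the GV stage, and then passes through maturation to MII while it degrades, stores or translates what it holds. An RNA level at MII therefore reflects both what was made earlier and what was kept. Genes that lie close to a targeted locus are also inherited together with it, so a gene's distance from Arid1a is given beside its values.

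Depth was 22686587 and 22388567 reads in genes for the knockout GV libraries, 33289150 and 28846136 for knockout MII, 20913886 and 19587421 for control GV, and 26005880 and 29740748 for control MII. Levels of single genes are in CPM, read counts normalised to the depth of each library. They are scaled between libraries and relative within a library, so that less RNA per oocyte cannot be told apart from a lower share. The 14 oocyte markers summed to 47915 and 46377 CPM in knockout GV and 24959 and 21085 CPM in knockout MII, against 45647 and 55842 CPM in control GV and 23066 and 21944 CPM in control MII. Markers of granulosa and cumulus cells, the somatic cells around the oocyte, summed to 59.7 and 72.8 CPM in knockout GV and 119 and 102 CPM in knockout MII, against 92.1 and 110 CPM in control GV and 138 and 169 CPM in control MII. Of these 18 markers, 14 were tested. At GV 0 passed in edgeR's quasi-likelihood test, with 2 at an unadjusted p below 0.05 and 0 by DESeq2. At MII 2 passed, both lower, with 7 at an unadjusted p below 0.05 and 5 by DESeq2. The median log2 fold change of the tested markers was -0.58 at GV and -2.27 at MII. Of the 14 oocyte markers, 1 was lower at MII. Blood and immune markers summed to 7.14 and 8.31 CPM in knockout GV and 6.58 and 8.67 CPM in knockout MII, against 7.03 and 9.55 CPM in control GV and 15.8 and 24.8 CPM in control MII. Of these 12 markers, 5 were tested and 2 were lower at MII, and Ptprc and Lyz2 had no reads in any library. The part of these sums in the results below was not tested.

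The targeted gene checks the labels. Arid1a (ENSMUSG00000007880, mm10 chr4:133679008-133756769, minus strand) had 4.87 and 12.9 CPM in knockout GV against 380 and 458 CPM in control GV, and 33.0 and 21.7 CPM in knockout MII against 1617 and 1293 CPM in control MII. The knockout libraries held 2.12% of the control level at GV and 1.88% at MII. Log2 fold changes were -5.55 ± 0.50 (SE) at GV and -5.73 ± 0.50 at MII, with adjusted p-values of 0.000526 and 0.000463 from edgeR's quasi-likelihood test with Benjamini-Hochberg adjustment over all genes tested.

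Of the 10 genes, 8 were lower and 2 were higher in knockout oocytes at both stages, and in all 10 the 2 knockout libraries lay wholly on one side of the 2 control libraries at each stage. Among all genes tested, 17.5% showed such separation in the same direction at both stages. At an adjusted p below 0.05, 0.989% of all genes tested differed at GV (0.597% higher and 0.392% lower), 5.14% at MII (1.7% higher and 3.44% lower) and 0.591% at both stages in the same direction (0.34% higher and 0.25% lower). The median log2 fold change of the 10 genes was -3.19 at GV and -4.92 at MII. The MII median became -3.84 when groups without a read were set to the floor of 3 counts per library, and the medians of all genes tested were -0.0 and -0.01. Since these measures chose the genes, nothing is read from them.

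**Figure D1:**
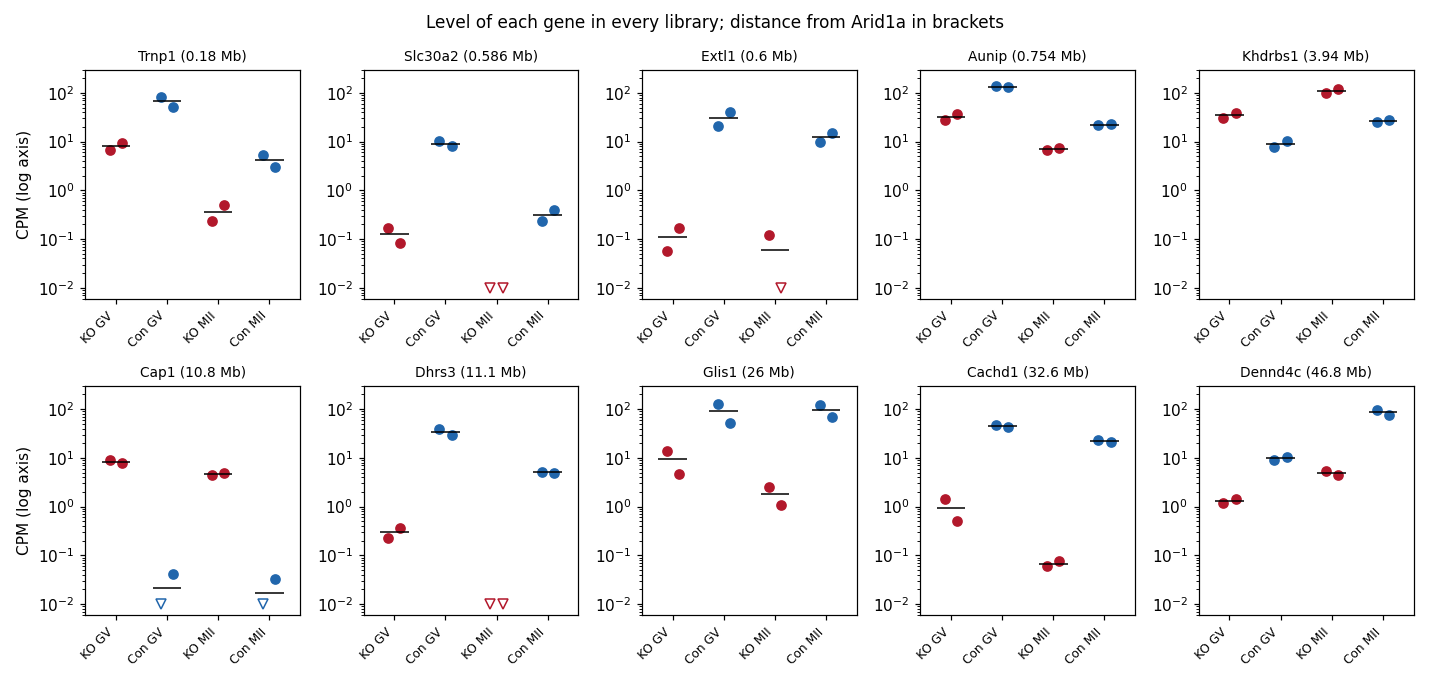
CPM of each of the 10 genes in each library, on a log axis, with 1 panel per gene, titled with its distance from Arid1a; groups run along the x axis with each stage's knockout to the left of its control, bars mark group means, and open triangles at the lower edge mark libraries with 0 reads. Only Khdrbs1 and Cap1 are higher in the knockout libraries, and Slc30a2 and Dhrs3 have 0 reads in both knockout MII libraries.

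Extl1, Dhrs3 and Slc30a2 were close to undetected in knockout oocytes at both stages while clearly present in control GV oocytes. Extl1 encodes a glycosyltransferase of the EXT family, which builds heparan sulfate chains. It had 1 and 4 reads in the knockout GV libraries, or 0.0566 and 0.165 CPM, against 21.4 and 41.0 CPM in control GV, a log2 fold change of -8.00 ± 0.91. At MII it had 4 and 0 reads in knockout libraries, or 0.119 and 0.0 CPM, against 9.81 and 15.1 CPM in control libraries, a log2 fold change of -7.48 ± 0.91. Against a floor of 3 reads, 2 of the 4 knockout libraries lie under it and the other two just above it.

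Dhrs3 encodes a retinaldehyde reductase that returns all-trans-retinal to retinol and so limits retinoic acid. It had 0.227 and 0.372 CPM in knockout GV, from 4 and 9 reads, against 39.6 and 29.7 CPM in control GV. At MII it had 0 reads in both knockout libraries, against 5.23 and 4.96 CPM in control libraries, which is at least 50.3-fold lower against the floor of 3 counts per library. The GV log2 fold change was -6.81 ± 0.63.

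Slc30a2 encodes ZnT2, a transporter that moves zinc out of the cytosol into vesicles. It had 3 and 2 reads in the knockout GV libraries, or 0.17 and 0.0826 CPM, against 10.3 and 8.0 CPM in control GV, a log2 fold change of -6.16 ± 1.04. At MII the knockout libraries held 0 reads, but the control libraries held only 6 and 12, or 0.231 and 0.396 CPM, so that the difference there is at least 3.1-fold lower. Slc30a2 and Extl1 are neighbours that face each other tail to tail, with 1.89 kb between them, on chr4:134343181-134354484 (plus strand) and chr4:134356372-134383850 (minus strand). Both have lower levels in every knockout library than in any control library of the same stage, at distances of 0.586 and 0.6 Mb from Arid1a.

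Cachd1 and Glis1 lie on the other side of Arid1a and far from it. Cachd1 encodes a membrane protein related to the α2δ subunits of voltage-gated calcium channels. It had 1.42 and 0.496 CPM in knockout GV against 46.5 and 44.0 CPM in control GV, and 0.0596 and 0.0755 CPM in knockout MII, from 2 reads in each library, against 23.0 and 21.3 CPM in control MII. Its log2 fold changes were -5.59 ± 0.55 at GV and -8.27 ± 0.68 at MII, and the MII value rests on 4 knockout reads in all.

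Glis1 encodes a Krüppel-like zinc finger transcription factor that in the mouse is known as a maternal RNA of the egg and as a factor that promotes reprogramming. It had 14 and 4.58 CPM in knockout GV against 129 and 53.2 CPM in control GV. At MII it had 2.56 and 1.06 CPM in knockout libraries against 122 and 69.7 CPM in control libraries. The replicates of each group were farther apart than those of most of the other genes, but no knockout library reached a control library. Log2 fold changes were -3.30 ± 0.65 at GV and -5.71 ± 0.73 at MII.

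Dennd4c, Trnp1 and Aunip were lower in the knockout but stayed measurable. Dennd4c encodes a DENN domain protein that activates Rab10, a small GTPase of vesicle transport. It had 1.19 and 1.45 CPM in knockout GV against 9.14 and 10.6 CPM in control GV, and 5.45 and 4.53 CPM in knockout MII against 98.3 and 77.5 CPM in control MII. Its log2 fold changes were -2.90 ± 0.37 and -4.14 ± 0.37, and its knockout MII level was below its control GV level.

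Trnp1, TMF-regulated nuclear protein, is known in the mouse for its part in the divisions of neural progenitors. Of the 10 genes it lies nearest to Arid1a, 0.18 Mb away. It had 6.68 and 9.21 CPM in knockout GV against 82.5 and 52.1 CPM in control GV, and 0.238 and 0.491 CPM in knockout MII against 5.35 and 3.07 CPM in control MII, with log2 fold changes of -3.08 ± 0.48 and -3.54 ± 0.54. Aunip encodes a protein that binds Aurora A kinase, which acts at spindle poles, and ninein. Aunip had 27.8 and 36.3 CPM in knockout GV against 137 and 131 CPM in control GV, and 6.82 and 7.4 CPM in knockout MII against 21.6 and 22.9 CPM in control MII. Relative to the mean, its replicates were farthest apart in knockout GV, with an SD of 6.04 CPM on a mean of 32.1. Its log2 fold changes were -2.06 ± 0.29 at GV, the smallest in size of the 8 genes that were lower, and -1.64 ± 0.29 at MII.

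Khdrbs1 and Cap1 were higher in knockout oocytes. Khdrbs1 encodes Sam68, an RNA-binding protein of the STAR family that acts in splicing and, in male germ cells of the mouse, in translation. It had 30.3 and 38.7 CPM in knockout GV against 7.84 and 10.2 CPM in control GV, and 98.5 and 119 CPM in knockout MII against 25.0 and 28.3 CPM in control MII. The log2 fold changes, 1.93 ± 0.31 at GV and 2.03 ± 0.31 at MII, were of similar size at both stages.

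Cap1 encodes cyclase-associated protein, which turns over actin filaments together with cofilin. It was present only in knockout libraries above the floor, with 158 and 187 reads in knockout GV, or 8.95 and 7.72 CPM, against 0 and 1 read in control GV. At MII the knockout libraries held 149 and 131 reads, or 4.44 and 4.95 CPM, against 0 and 1 read in control MII. The ratio of summed reads, scaled to depth, was 374 at GV (95% counting interval 66.7 to 14822) and 262 at MII (46.7 to 10397). Cap1 lies on the minus strand at chr4:122859047-122886056 and shares 129 bases with the end of the annotated span of Ppt1 on the opposite strand. Ppt1, which encodes a lysosomal palmitoyl thioesterase, had 7.45 ± 1.09 CPM in knockout GV against 9.63 ± 1.73 CPM in control GV, and 12.7 ± 7.6 CPM in knockout MII against 15 ± 5.5 CPM in control MII (SD, n = 2 each). Its adjusted p-values in edgeR's quasi-likelihood test were 0.935 and 0.857. Without the counting's strand setting, which no source at hand states, reads in the shared stretch cannot be assigned.

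Cachd1, Glis1 and Dennd4c also share bases with another annotated gene. Gm10577, which overlaps Cachd1, and the miRNA gene Gm24804, which overlaps Glis1, had 0 reads in every library. Dennd4c overlaps the pseudogene Gm12630 on the opposite strand, with at most 0.124 CPM in a group. These levels are below those of the member in its control groups in each case.

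Threshold values show how close some members lie to their neighbours in rank. The member just inside the threshold was Glis1 at GV, with an adjusted p of 0.0466 in edgeR's quasi-likelihood test, and Slc30a2 at MII, with 0.0437. Of chromosome 4 genes that passed at MII with the same direction at GV, those just outside it at GV were Zfp984 (0.051), Draxin (0.0521) and Eya3 (0.0587). Of those that passed at GV with the same direction at MII, the pseudogene Gm12633, with 0.0576, lay just outside it at MII. When each library was left out in turn, the GV log2 fold change ran from -8.98 to -7.47 for Extl1. It ran from -7.22 to -6.51 for Dhrs3 and from -6.48 to -4.99 for Cachd1. At GV, 4 members passed without either of the control GV libraries, 3 without the first knockout GV library and 6 without the second. At MII, Slc30a2 passed in 1 of 8 fits and Aunip in 7, and the other members passed in 8. No fold change of a member changed direction in any of these fits. The same values chose the members, so ranks, passes and directions describe the choice and support no member.

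Promoter sequences are shown for 4 of the genes at the extremes of the comparison: Extl1 and Dhrs3, which were nearly lost, Slc30a2, the neighbour of Extl1, and Cap1, which was nearly absent from control libraries. The windows run from 250 bases before to 50 bases after the RefSeq start site on GRCm38.p6, and 9 of the 10 genes had an entry. Capitals mark the CCAAT box, with the letters CCAAT, and the GC box, with the letters GGGCGG, each read on either strand and so also in its reverse complement. The windows lie at chr4:134372498-134372797 (minus strand) for Extl1, chr4:134343216-134343515 (plus) for Slc30a2, chr4:144892577-144892876 (plus) for Dhrs3 and chr4:122886027-122886326 (minus) for Cap1. The RefSeq start of Extl1 lies 11303 bases from the start of its GENCODE gene, and that of Slc30a2 lies 285 bases from its own. The windows of both genes lie within their annotated GENCODE spans.
Extl1: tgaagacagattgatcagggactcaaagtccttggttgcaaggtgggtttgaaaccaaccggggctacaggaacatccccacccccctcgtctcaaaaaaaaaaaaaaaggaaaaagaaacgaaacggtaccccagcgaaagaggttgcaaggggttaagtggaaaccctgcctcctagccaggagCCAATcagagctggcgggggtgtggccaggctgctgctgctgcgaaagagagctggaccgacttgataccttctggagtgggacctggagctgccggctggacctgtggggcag
Slc30a2: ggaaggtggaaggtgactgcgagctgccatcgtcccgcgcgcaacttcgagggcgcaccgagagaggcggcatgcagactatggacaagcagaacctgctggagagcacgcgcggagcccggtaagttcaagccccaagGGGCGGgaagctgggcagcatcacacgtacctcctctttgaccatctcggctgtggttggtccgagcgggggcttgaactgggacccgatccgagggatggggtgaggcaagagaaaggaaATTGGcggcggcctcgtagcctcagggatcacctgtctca
Dhrs3: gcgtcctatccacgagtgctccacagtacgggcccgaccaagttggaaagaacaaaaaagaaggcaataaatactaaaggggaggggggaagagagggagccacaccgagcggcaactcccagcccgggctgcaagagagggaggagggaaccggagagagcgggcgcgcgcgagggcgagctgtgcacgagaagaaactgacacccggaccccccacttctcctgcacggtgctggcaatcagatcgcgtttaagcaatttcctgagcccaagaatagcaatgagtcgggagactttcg
Cap1: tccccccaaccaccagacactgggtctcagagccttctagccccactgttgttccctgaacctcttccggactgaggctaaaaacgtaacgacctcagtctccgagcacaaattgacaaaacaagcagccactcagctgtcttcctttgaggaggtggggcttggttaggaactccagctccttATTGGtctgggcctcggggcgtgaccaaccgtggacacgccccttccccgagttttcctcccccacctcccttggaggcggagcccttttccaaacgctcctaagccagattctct
Extl1 and Cap1 each hold 1 CCAAT box, Slc30a2 holds 1 CCAAT box and 1 GC box, and Dhrs3 holds neither in this window.

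Over 32851 RefSeq promoter windows of the same length, 37.4% hold CCAAT, 35.7% GGGCGG, 13.6% the TATA box TATAAA, 7.2% the E-box CACGTG and 7.8% the AP-1 site TGANTCA, each read on both strands. None of the 9 windows holds the TATA box, the E-box or the AP-1 site. Their counts of CG dinucleotides ran between 9 for Extl1 and 47 for Glis1, with a median of 7 over all windows. Cap1, the gene gained in knockout libraries, had 11, and the genes that were lower had between 9 and 47. A match to these letters is a description of the sequence, and its absence says nothing about binding.

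The 10 genes are spread over a large part of the chromosome. Trnp1 lies 0.18 Mb from Arid1a, Slc30a2 0.586 Mb, Extl1 0.6 Mb, Aunip 0.754 Mb, Khdrbs1 3.94 Mb, Cap1 10.8 Mb, Dhrs3 11.1 Mb, Glis1 26.0 Mb, Cachd1 32.6 Mb and Dennd4c 46.8 Mb. Slc30a2, Extl1, Aunip and Dhrs3 are on the side of higher coordinates and the other 6 on the side of lower coordinates. Across these 10 genes, which share the same libraries, the size of the fold change and the distance had a Pearson r of -0.15 and a Spearman rho of -0.05 at GV, and of 0.17 and 0.32 at MII, where 2 of the fitted sizes depend on a prior count. The 4 genes within 1 Mb were all lower in the knockout, and the 2 higher genes lie at 3.94 and 10.8 Mb.

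**Figure D2:**
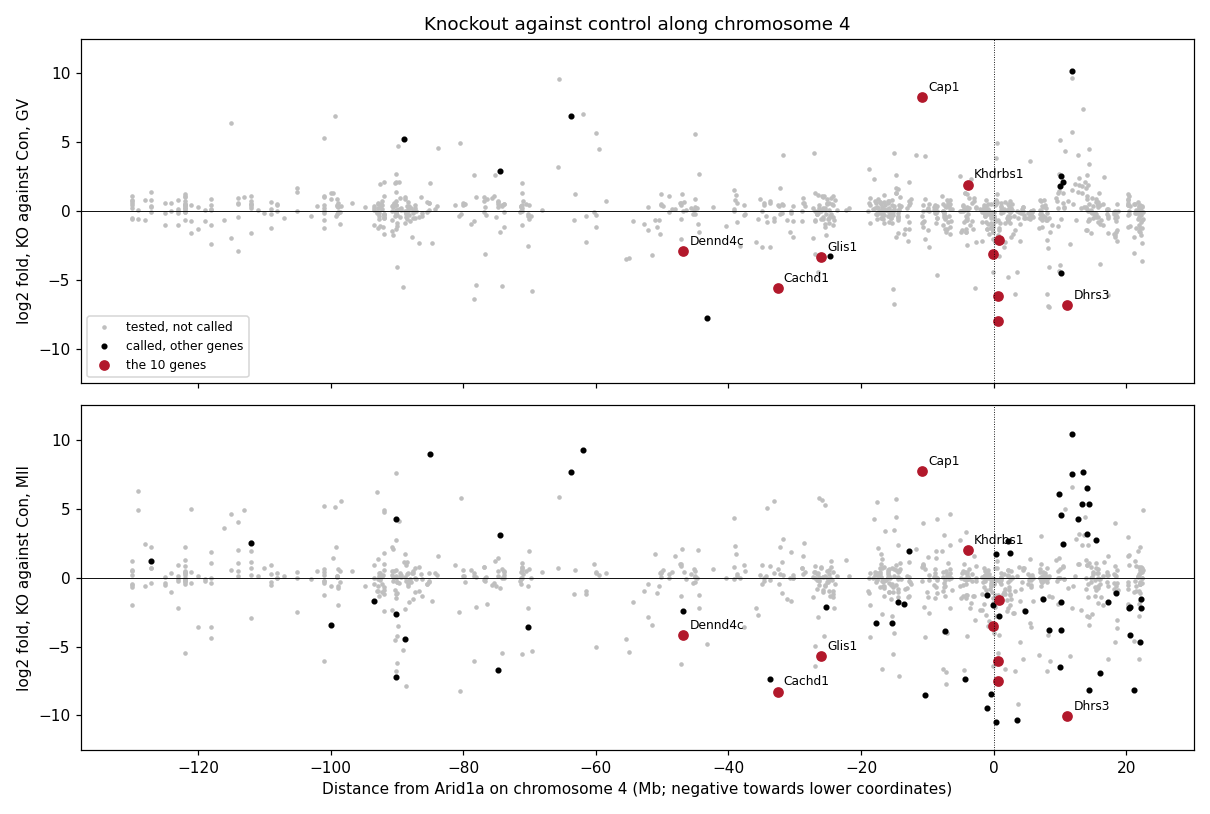
Log2 fold change of knockout against control for each tested gene of chromosome 4, by its distance from Arid1a in Mb (negative: lower coordinates), with GV above and MII below. The 10 genes are in red, other genes past an adjusted p of 0.05 in black and the rest in grey; the 4 red points within 1 Mb lie below 0, and red points reach 46.8 Mb. Fitted values of genes with no reads in a group depend on a prior count.

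Chromosome 4 as a whole can be set beside the other chromosomes. At GV, 20 of its 956 tested genes passed, or 2.09%, against 133 of 14615 on other chromosomes, or 0.91%. At MII the counts were 74, or 7.74%, against 725, or 4.96%, and at both stages in the same direction 16, or 1.67%, against 75, or 0.513%. The next highest share of a chromosome was 1.79% at GV and 1.08% at both stages, with 10 and 6 of 558 genes of chromosome 14, and at MII it was 7.41%, on chromosome 17, close to that of chromosome 4. These shares have no test here, because the 10 genes were taken from them. The count of 16 became 5 and 6 without the first and second control GV libraries and 7 and 9 without the first and second knockout GV libraries, and lay between 20 and 23 without any 1 MII library. The count of 74 at MII became 49 and 48 without the first and second control GV libraries and 46 and 49 without the first and second knockout GV libraries. The 20 genes at GV were 9 higher and 11 lower, and 7 and 14 when libraries were scaled by their totals alone.

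Distance classes show where on the chromosome these 16 genes lay. Within 1 Mb of Arid1a, 4 of 50 tested genes passed at both stages, or 8.0%, all 4 of them lower and all 4 among the 10 genes described. Between 1 and 5 Mb it was 1 of 104, Khdrbs1, and between 5 and 10 Mb 0 of 108. Between 10 and 20 Mb it was 6 of 206, or 2.91%, of which 4 were higher, between 20 and 50 Mb 3 of 183, or 1.64%, and beyond 50 Mb 2 of 305, or 0.656%. On the other chromosomes the share was 0.513%, and since 10 of the 16 genes are the ones described, nothing is read from these classes. Within 5 Mb, 5 genes passed at GV and 17 at MII, and leaving out 1 GV library left 1 (either control library) or 2 (either knockout library) at GV. At MII, 11 were left without either control GV library.

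The other 46 tested genes within 1 Mb were not chosen by their change at both stages. Of these, 34 had a log2 fold change below 0 at GV, 36 at MII and 29 at both stages. That is 73.9%, 78.3% and 63.0%, against 50.2%, 50.4% and 30.8% of genes on other chromosomes. Their median log2 fold change was -0.64 at GV and -0.92 at MII, and -0.6 at MII with groups without a read set to the floor. On the other chromosomes the medians were -0.0 and -0.01. In the next class, between 1 and 5 Mb, the medians of non-members were -0.07 and -0.32.

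With only the 29 of these genes that averaged at least 5 CPM, the medians were -0.49 at GV and -0.5 at MII, with 23 below 0 at each stage. On the side of higher coordinates the medians of these were -0.04 at GV, with 6 of 11 below 0, and -1.23 at MII, with 8 of 11. On the side of lower coordinates they were -0.69, with 17 of 18, and -0.42, with 15 of 18. Leaving out each library in turn moved the median over all 46 genes between -0.73 and -0.42 at GV, where -0.42 was the value without the first control GV library, and between -1.18 and -0.56 at MII, where -0.56 was the value without control MII library a. This set was taken up after the distance classes had been seen, and it has no test. In these groups, loss of BAF250a and any difference in the chromosome segment inherited with the targeted allele cannot be told apart.

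**Figure D3:**
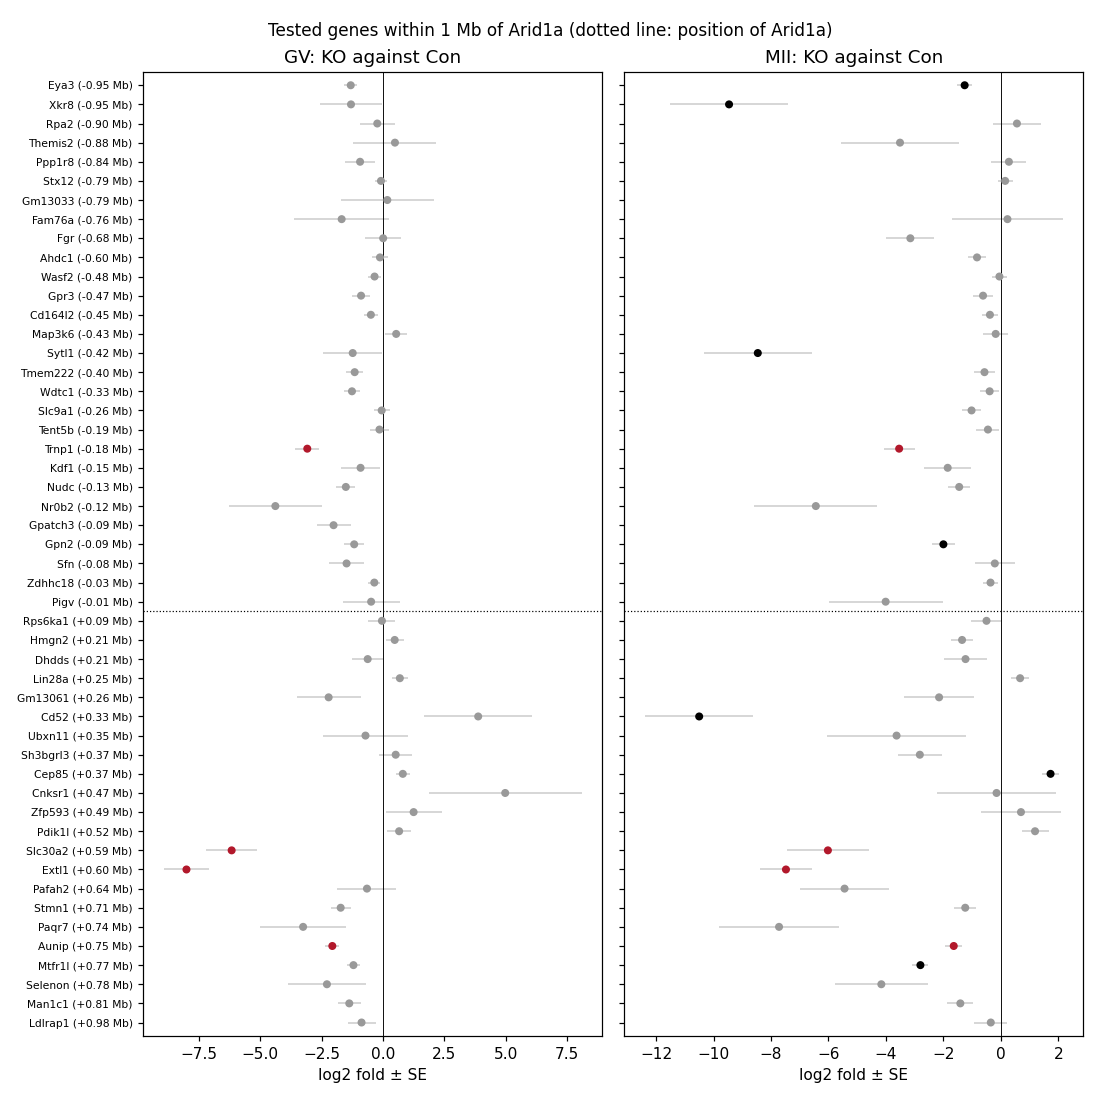
Log2 fold change of knockout against control (± SE) for the tested genes within 1 Mb of Arid1a, in order of position down the page, at GV and at MII. Members are in red, other genes past an adjusted p of 0.05 in black and the rest in grey; most points lie left of 0 at both stages, genes without reads in either group of a stage are not drawn there, and fitted values of genes with no reads in 1 group depend on a prior count.

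Of the 46, 0 passed the threshold at GV in edgeR's quasi-likelihood test, where 0.989% of all genes tested passed. At MII 7 passed, or 15.2%, where 5.14% of all genes tested did. The members, which passed, had been taken out of these counts. With them, 4 of 50 genes passed at GV, or 8.0%, and 11 at MII, or 22.0%. Of the 46, 12 at GV and 21 at MII had an unadjusted p below 0.05, and DESeq2 called 6 and 13. These counts have no share of all genes beside them and are not compared. The gene with the smallest adjusted p among the 7 was Mtfr1l, which encodes a mitochondrial protein and lies next to Aunip. It had 47.6 and 48.9 CPM in knockout GV against 101 and 121 CPM in control GV, and 8.64 and 8.08 CPM in knockout MII against 55.3 and 61.3 CPM in control MII. Its log2 fold change at MII was -2.80 ± 0.28, with an adjusted p of 0.000878 in edgeR's quasi-likelihood test, and at GV it was -1.20 ± 0.26, with 0.0768. Mtfr1l was thus lower than control in every knockout library, as Aunip was, but passed at 1 stage.

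Eya3, which encodes a phosphatase and transcriptional coactivator, averaged 29.7 ± 1.03 CPM in knockout GV against 73.4 ± 14.5 CPM in control GV, and 58.5 ± 2.64 CPM in knockout MII against 140 ± 14 CPM in control MII (SD, n = 2 each). Gpn2, which encodes a GTPase, averaged 63.7 ± 8.48 CPM in knockout MII against 254 ± 27.4 CPM in control MII. Xkr8, Sytl1 and Cd52 had 0 reads in both knockout MII libraries, against 195, 93 and 412 reads in control MII, and Cd52 is also in the list of blood and immune markers. Cep85, which encodes a centrosomal protein, was the 1 gene of the 7 that was higher, with 300 ± 48 CPM in knockout MII against 90.2 ± 1.86 CPM in control MII.

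A further 6 genes of chromosome 4 passed at both stages and are not among the 10. They are Gm13103, C87977 and the pseudogene Gm13100, which lie between 10.1 and 10.5 Mb from Arid1a, Zfp990 at 11.8 Mb, the pseudogene Gm11223 at 63.8 Mb and Ugcg at 74.5 Mb. Gm13103 and C87977 belong to a family with near-identical copies, so that their reads can be split between copies. Ugcg, glucosylceramide synthase, had 81.0 and 138 CPM in knockout GV against 10.8 and 18.8 CPM in control GV, and 310 and 360 CPM in knockout MII against 41.7 and 36.1 CPM in control MII. Its log2 fold changes of 2.88 ± 0.37 and 3.11 ± 0.37 were larger than those of Khdrbs1, and it is farther from Arid1a than any of the 10 genes. Zfp990, a zinc finger gene, had 0 reads in all 4 control libraries, and it averaged 5.64 ± 1.01 CPM in knockout GV and 6.63 ± 1.7 CPM in knockout MII, a pattern like that of Cap1.

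Genes next to the 10 were read the same way, as the 3 tested genes on each side. Of 51 such genes that are not members, 1 passed at GV, or 1.96% against 0.989% of all genes tested, and 4 at MII, or 7.84% against 5.14%. Zfp990 passed at both stages, and Mtfr1l, Pgm1 and Rps6 passed at MII. The neighbours of Khdrbs1 had log2 fold changes between -0.48 and 0.94 at GV and between -0.12 and 0.66 at MII. Those of Trnp1 were all below 0 at both stages, as were those of Aunip. Neighbours of Extl1 reached 1.25 at GV and 1.19 at MII. For Slc30a2 they reached 4.98 at GV, from Cnksr1 with 7 knockout reads against 0, and 1.19 at MII. All neighbours of these members lie among the genes within 1 Mb described above.

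Maturation, MII against GV oocytes of the same genotype, is a contrast that the choice of the genes did not use. Its libraries are the ones that chose the genes, so it is not independent of that choice. In knockout oocytes 6 of the 10 genes fell, 2 rose and 2 did not pass. In control oocytes 4 fell, 2 rose and 4 did not pass. The 6 include Slc30a2, with 5 knockout reads at GV and 0 at MII, and Dhrs3, with 13 and 0. Nothing is therefore read from 6 against 4. Of all genes tested, 49.0% passed in knockout oocytes, 19.9% higher and 29.1% lower at MII, and 49.1% in control oocytes, 21.2% higher and 27.9% lower. The median log2 fold change of the 10 genes was -2.26 in knockout oocytes, or -1.2 with groups without a read at the floor, against -0.33 for all genes tested. In control oocytes it was -1.18 for the 10 genes and -0.2 for all genes.

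**Figure D4:**
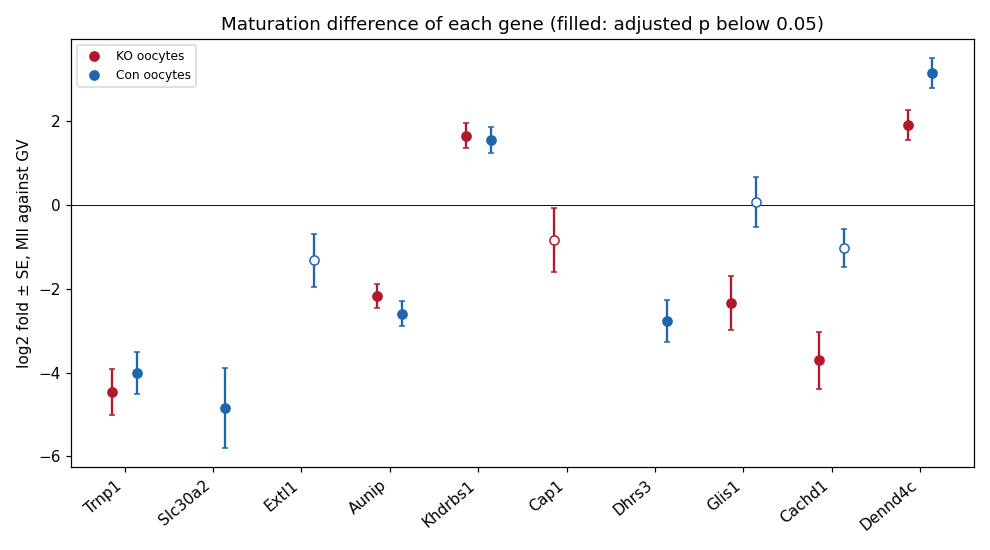
Log2 fold change of MII against GV oocytes (± SE) for each gene, with knockout on the left in red and control on the right in blue; filled points passed an adjusted p of 0.05, and values that are only bounds or lie at the floor are not drawn. Dennd4c and Khdrbs1 lie above 0 and Trnp1 and Aunip below 0 in both genotypes, while Glis1 is below 0 in knockout and near 0 in control oocytes.

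Trnp1 and Aunip fell during maturation in both genotypes. The log2 fold change of Trnp1 was -4.46 ± 0.55 in knockout oocytes (adjusted p = 0.000132, edgeR's quasi-likelihood test here and below) and -4.0 ± 0.50 in control oocytes (0.000156). That of Aunip was -2.17 ± 0.29 in knockout oocytes (adjusted p = 0.000205) and -2.59 ± 0.29 in control oocytes (8.56e-05). Both genes were already lower in knockout oocytes at GV, before this decline.

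Dennd4c and Khdrbs1 rose during maturation in both genotypes. The log2 fold change of Dennd4c was 1.91 ± 0.36 in knockout oocytes (adjusted p = 0.00152, edgeR) and 3.15 ± 0.35 in control oocytes (8.09e-05). That of Khdrbs1 was 1.65 ± 0.30 in knockout oocytes (adjusted p = 0.00136) and 1.56 ± 0.31 in control oocytes (0.00208). Levels are shares of the RNA that remains, so a rise can reflect slower loss than that of other RNAs.

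Dhrs3 fell in both genotypes, by at least 2.95-fold in knockout oocytes (adjusted p = 0.00208, edgeR) and with a log2 fold change of -2.76 ± 0.50 in control oocytes (0.00162). Slc30a2 fell in control oocytes, with a log2 fold change of -4.84 ± 0.95 (adjusted p = 0.0026). It also passed in knockout oocytes (0.0294), where both stages lie at or under the floor, so no fold is given, and this call was lost without either control GV library, the first knockout GV library or either knockout MII library. In its level per kb, Slc30a2 stood at percentile 16.2 of all genes tested in control MII oocytes, and Dhrs3 at percentile 55.4.

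Cachd1 and Glis1 fell in knockout oocytes, with log2 fold changes of -3.71 ± 0.68 (adjusted p = 0.00138, edgeR) and -2.34 ± 0.65 (0.0133). In control oocytes neither passed, with -1.03 ± 0.45 for Cachd1 (0.0789) and 0.07 ± 0.59 for Glis1 (0.935). The call of Glis1 in knockout oocytes was lost without the first knockout GV or the second knockout MII library, with an adjusted p of up to 0.15. The log2 fold change of knockout against control at MII minus that at GV was -2.68 ± 0.82 for Cachd1, -2.41 ± 0.87 for Glis1 and -1.24 ± 0.48 for Dennd4c. None of these 3 passed over all genes, with adjusted p-values of 0.254, 0.334 and 0.369 in edgeR's quasi-likelihood test. The effects compared here chose the genes, so the differences are a description. Few reads enter them for Cachd1, with 4 in knockout MII, and for Extl1, with 5 in knockout GV and 4 in knockout MII. The difference was 0.52 ± 1.46 for Extl1, 0.42 ± 0.39 for Aunip, 0.09 ± 0.42 for Khdrbs1 and -0.46 ± 0.67 for Trnp1, and is not given for Slc30a2, Dhrs3 and Cap1, which have a group with 0 or 1 reads in all. Extl1 did not pass in control oocytes, with -1.32 ± 0.63 (0.104), and Cap1 did not pass in knockout oocytes, with -0.83 ± 0.76 (0.389).

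Levels were compared between the genes per kb of exon, as CPM per kb. In knockout GV oocytes Aunip was highest, at 25.2 ± 4.74 CPM per kb, followed by Khdrbs1 at 5.37 ± 0.925, Trnp1 at 4.8 ± 1.08, Glis1 at 2.56 ± 1.84 and Cap1 at 2.39 ± 0.248, of which neighbours in the order overlapped in their mean ± SD from Khdrbs1 on. The other 5 genes lay at or below 0.159 CPM per kb. In control GV oocytes Aunip was again highest, at 105 ± 3.26 CPM per kb, with Trnp1 at 40.7 ± 13, Glis1 at 25.0 ± 14.8 and Dhrs3 at 11.8 ± 2.4, which overlapped in this order after Aunip. Cap1 was lowest in control GV, at 0.006 ± 0.00848 CPM per kb.

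In knockout MII oocytes Khdrbs1 was highest, at 16.9 ± 2.2 CPM per kb, ahead of Aunip at 5.58 ± 0.32 and Cap1 at 1.34 ± 0.103, with no overlap between these. In control MII oocytes Glis1, at 26.3 ± 10.1 CPM per kb, and Aunip, at 17.4 ± 0.713, overlapped and were followed by Dennd4c at 10.4 ± 1.73 and Khdrbs1 at 4.15 ± 0.366. In its level per kb Glis1 stood at percentile 38.7 of all genes tested in knockout MII and 89.4 in control MII. Khdrbs1 stood at percentile 85.2 in knockout MII and 68.3 in control MII.

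Relatives of the 10 genes and partners in their pathways were listed in 10 groups. Of 58 tested genes, 2 were higher and 0 lower at GV, or 3.45% against 0.989% of all genes tested. At MII, 2 were higher and 2 lower, or 6.9% against 5.14%. At these numbers the shares say little about the relatives, which had median log2 fold changes of 0.04 and 0.06. Of the GLI family, the zinc finger relatives of Glis1, Gli3 was higher at both stages, with log2 fold changes of 1.99 ± 0.38 at GV (adjusted p = 0.0417, edgeR) and 2.58 ± 0.39 at MII (0.00694). Gli3 averaged 614 ± 111 CPM in knockout MII against 103 ± 15.6 CPM in control MII. Gli2 was lower at MII, with -4.65 ± 0.93 (0.0209), and had -4.90 at GV (0.0593).

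Qk, an RNA-binding STAR protein gene like Khdrbs1, was higher at GV, with 1.38 ± 0.27 (adjusted p = 0.0466, edgeR), and had 0.92 ± 0.27 at MII (0.0795). Pfn1, which encodes profilin, an actin-binding protein, was higher at MII, with 3.01 ± 0.55 (0.0144), and had 2.45 at GV (0.0665). Crabp2, which carries retinoic acid to its receptor, was lower at MII, with -2.58 ± 0.40 (0.00756). No tested gene passed at either stage among the 4 other EXT glycosyltransferases, the 7 other ZnT transporters, the 2 α2δ genes, the 5 Aurora A partners, the 6 DENND4 and Rab genes and the TMF gene. Of these 25 genes, 4 at GV and 6 at MII had an unadjusted p below 0.05, and DESeq2 called 1 and 2.

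The gene whose pattern over the 8 libraries was most like that of a member was found by the smallest root mean square difference of centred log2 CPM. D5Ertd577e, on chromosome 5, was the closest for Extl1, Dhrs3 and Cachd1, with differences of 0.89, 0.6 and 0.55. Tceanc2, also on chromosome 4 and 26.5 Mb from Arid1a, was closest to Slc30a2 (0.85), Rassf4 to Cap1 (0.38), Klhl12 to Khdrbs1 (0.24), Elf3 to Aunip (0.34), Gm3259 to Glis1 (0.7) and Kynu to Dennd4c (0.6). A smaller difference means more alike patterns for 1 member, but the measure is not scaled to how much a member varies and does not rank the pairs. The same 8 libraries chose the members, so a like knockout difference is no support for them.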

How the data were processed

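The deposited counts per gene were made by the authors; the submitters' processing notes name the build mm10 and the tools Bowtie2, HTSeq and edgeR. The sources used here state no versions, annotation or strand setting. The table has 54838 gene entries and 5 summary entries, which held 22.0% to 35.13% of a library's reads and stayed out of all totals. Per the file headers, the same name, that of a control MII library, stands on 2 columns; these were taken as the control MII group, without a replicate number. Unused value columns numbered 0. Symbols and positions came from GENCODE M21 (54809 identifiers placed), and promoters from RefSeq on GRCm38.p6.

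Counts were fitted with edgeR 4.0.16 in R 4.3.3: filterByExpr (15572 genes), TMM scaling, 1 term per group over 8 libraries with 4 residual degrees of freedom, quasi-likelihood F-tests (two-sided) and Benjamini-Hochberg adjustment per contrast, with a threshold of 0.05. CPM of single genes use TMM-scaled depth, and sums over marker lists use library totals. Where a group had 0 reads, folds are bounds against 3 counts per library (0.0901 to 0.153 CPM); floors and intervals cover counting error only. The SE is the log2 fold change divided by the square root of F. DESeq2 1.42.0 served as an alternative. Counts by DESeq2 or by unadjusted p are given without a share over all genes, so the edgeR shares are no comparison for them. The 10 genes and all gene lists were chosen with earlier results of these data known. Genes named beyond them are those past the threshold in the lists, within 1 Mb of Arid1a or on chromosome 4 at both stages, the neighbours that passed, and those next to the threshold. Replicate columns differed by a chi-square per degree of freedom of 48.5 to 106, so none was a duplicate. The gene most like Trnp1 in pattern is not reported here.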

Additional observations from a re-analysis of the deposited data

How the results depend on the processing

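With 2 libraries a group, counts of calls moved far more than fold changes. The main counts were 20 chromosome 4 genes at GV, 74 at MII and 16 at both stages, and 5 genes at GV and 17 at MII within 5 Mb of Arid1a. In the same order they were 62, 142, 42, 10 and 33 without a low-count filter, and 64, 141, 40, 11 and 31 with DESeq2. A fit of only the 4 libraries of a stage gave 80 at GV and 42 at MII, and 15 and 10 within 5 Mb. Leaving out each library in turn gave 6 to 34 at GV, 46 to 71 at MII, 5 to 23 at both stages, 1 to 6 and 11 to 14 within 5 Mb, 6 to 7 genes called in maturation of control oocytes and 6 to 8 in knockout oocytes. The GV count was 6 and 8 without the first and second control GV library, 8 and 12 without the first and second knockout GV library and 34 and 32 without the first and second knockout MII library, and the cause was not tested. Of the fold changes of the 10 genes against control, 160 with a library left out and 135 under other settings, 0 reversed, though between 3 and 10 of the 10 genes passed at GV and between 7 and 10 at MII, with 7 in the fit of the 4 MII libraries. In maturation, 7 of 160 values lost their call when a library was left out and 3 gained one, and 3 of 96 gained one in other settings (Extl1 and Cachd1 in control oocytes). Scaling by library totals moved the median log2 fold change of all genes by -0.271 at GV and that of the 46 genes within 1 Mb to -0.94.

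Replicate numbers pair no animals in the labels, and same-numbered deviations correlated at 0.119, -0.02 and 0.0127 between groups. With the replicate number as a block over the 6 numbered libraries, 23 chromosome 4 genes passed at GV and 5 within 5 Mb, against 27 and 5 in the same libraries without the block. In edgeR's quasi-likelihood test, Dennd4c had an adjusted p of 0.0854 with the block and 0.0426 without it, and Glis1 0.00431 with it and 0.063 without it. Both genes were chosen by this comparison, so these values are no test of them. No paired analysis was possible at MII because the control MII columns carry no distinct number.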
